A study of Mus musculus with 10 samples.

Results

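Clones of the mouse embryo fibroblast line NIH3T3 that stably overexpress FOXP2 were compared with parental cells of the line and with cells stably carrying the vector. Of the 10 RNA sequencing libraries of the series, 6 entered: clones 1 to 4 with FOXP2, each from an independent clone, and 1 parental and 1 vector library as the control. The other 4 libraries, clones with FOXP2-CPED1, lent only an estimate of spread to 1 alternative fit named below. Values were RPKM, read numbers scaled to transcript length and library size, from 1 table. Of its 18430 rows, 13862 named 1 gene, and 11552 of these were tested because 2 or more of the 6 libraries held them at 1 RPKM or above. The other 2310 stayed below that filter. Neither the labels nor the table name the construct's promoter, or the species and length of its FOXP2 sequence. The controls are not stated to be clones, so deriving a clone and carrying FOXP2 cannot be told apart.

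FOXP2 is a forkhead transcription factor that mostly represses its targets and is best known for its role in the brain circuits of speech, and it also acts in lung and other tissues. Fibroblasts such as NIH3T3 respond to serum with a fast wave of immediate-early genes. Many of these, and many genes of the contractile cytoskeleton, are controlled by serum response factor (SRF), which binds the CArG box together with partners that read MAP kinase and actin signals. Cholesterol synthesis is governed separately, by SREBP2, which enters the nucleus when membrane sterol is low.

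The libraries held 12696 to 13081 rows at 1 RPKM or more. Their relative depth, read from the steps among low values, was 1.00 to 1.19 times that of the parental library, and the absolute depth is unknown. The Spearman correlation across genes was 0.984 between the parental and vector libraries and 0.923 to 0.968 between clones. Between a control and a clone it was 0.940 to 0.969. In clones 2 and 4, the rows that hold mitochondrially encoded genes were listed at 0. The other 4 libraries held mt-Nd6 at 1148 to 1323 RPKM. Fibroblast markers were high as a sum in all 6 libraries: 13 of the 15 listed were found as single-gene rows, with a summed level of 9846 to 9966 RPKM in the controls and 6566 to 9324 in the clones. On the log2(RPKM + 1) scale, 11 of the 13 had a lower mean in the clones and 2 a higher one. Vim, the marker with the highest level, averaged 2967 RPKM in the controls and 1763 in the clones. Of 13 epithelial markers, 2 were found, summing to at most 5.19 RPKM, and the 3 of 14 blood and immune markers found summed to 32.8 to 50.6. The 2 of 10 endothelial markers found summed to 17.1 RPKM in clone 4, nearly all of it from Vwf, and to 1.86 to 5.49 in the other libraries.

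The mouse row of Foxp2 was low in all 6 libraries, at 0.0798 and 0.0785 RPKM in the controls and at 0.217, 0.365, 0.145 and 1.02 in clones 1 to 4. All 4 clones lay above both controls, but only clone 4 reached 1 RPKM, so the row was below the filter. An exact two-sided permutation test on log2(RPKM + 1) gave p = 0.133, the smallest p that 2 controls against 4 clones allow in this test. This row may miss the introduced sequence and so does not check the labels. Cped1, the other gene named in the series, stood at 24.2 and 27.0 RPKM in the controls and at 31.0, 6.43, 16.3 and 25.8 in the clones. Clones and controls overlapped (exact two-sided permutation p = 0.667), and clone 2 alone was far below the rest.

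The main test was limma on log2(RPKM + 1), with Benjamini-Hochberg adjustment over all 11552 rows and 0.05 as the threshold. It called 11 rows lower in the clones (0.0952% of those tested) and 0 higher (0%). The genes that fell were the transcription factors Srf and Npas4, the early gene Arc, the contractile genes Myl9 and Lmod1, the protease gene Plau, the peptide gene Adm, Plekho2, and the gene models Gm22637, Gm28321 and Gm15427. Their adjusted p-values lay between 0.0488 and 0.0491. At an unadjusted p under 0.05 there were 573 rows on the lower and 270 on the higher side, and the smallest adjusted p among the higher ones was 0.0835. The calls lay so near the threshold that a pseudocount of 0.1 or 0.25, a filter on a mean of 5 RPKM or the addition of rows joining several genes left 0. Without the parental or the vector library 4 (1 lower and 3 higher) and 0 rows were called, and without clone 1, 2, 3 or 4 the numbers were 2, 18, 1 and 2. Of the 11, 6 were still called without clone 2 and 0 without any one of the other libraries. All 11 kept a negative difference and an unadjusted p under 0.05 in each of these fits that tested them (6 under the filter on the mean).

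A description without a test was used beside the fit. A row is called apart by 2-fold here when all 4 clones lay on one side of both controls and the difference of mean log2(RPKM + 1) was at least 1 in size. By this measure 205 rows were apart on the lower side (1.77%) and 59 on the higher side (0.511%), 264 in all. Without the parental library, when only the vector library has to be passed, the count was 414. Without the size condition, clones and controls did not overlap for 1218 rows on the lower side (10.5%) and 1058 on the higher side (9.16%). A difference of at least 4-fold was found for 41 of the rows apart on the lower side and 3 on the higher side. The median difference over all tested rows was 0.02, and 47.5% of them had a negative difference. When the spread was estimated from all 10 libraries, with the same contrast, 48 rows were called lower (0.416%) and 4 higher (0.0346%). All 11 calls were among them, and 50 of the 52 were apart by 2-fold. Below, "fell" is used only for calls of the fit of 6 libraries, and a call of the fit of 10 libraries is named as such.

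**Figure D1:**
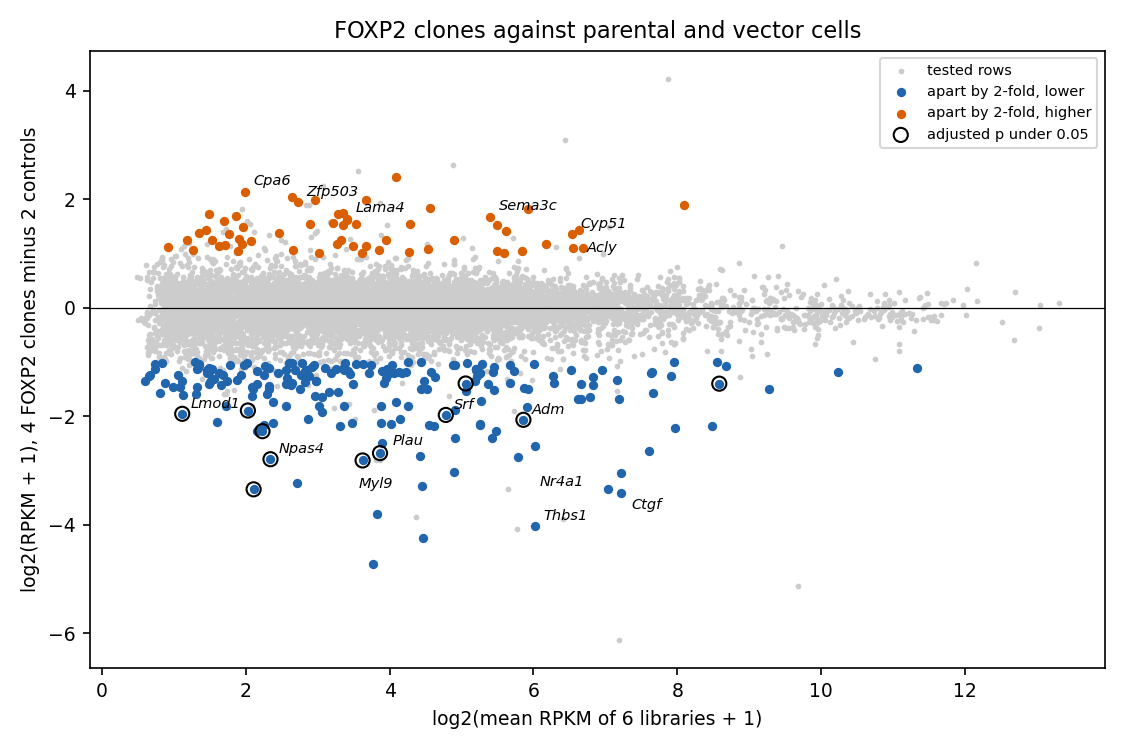
Difference of mean log2(RPKM + 1) between the 4 FOXP2 clones and the 2 controls (vertical axis) against log2 of the mean RPKM of the 6 libraries plus 1 (horizontal axis), 1 point per tested row. Blue and orange points are the 205 rows apart by 2-fold on the lower side and the 59 on the higher side, and black rings mark the 11 rows with adjusted p under 0.05, all of them below 0.

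Part of the immediate-early transcription factors stood far lower in the clones, and others were close to the controls. In these bulk samples, fewer cells expressing a gene and less RNA per cell cannot be told apart. All 22 measured members of that list had a negative difference, some of them near 0, with a median of -0.95 against 0.02 over all genes. For 11 of the 22 the clones lay below both controls without overlap, against 10.5% of all tested rows. Of the 22, Srf and Npas4 fell, 7 were apart by 2-fold on the lower side and 0 on the higher side, and 5 were called lower in the fit of 10 libraries. Over all tested rows, 1.77% were apart by 2-fold on the lower side and 0.511% on the higher side. These shares are the ones to set beside the counts of each list below. The medians of the single clones, each against the control mean, were -1.37, -0.78, -1.04 and -1.20, and the vector cells differed from the parental cells by -0.08.

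Srf, which encodes the serum response factor itself, stood at 56.5 and 50.4 RPKM in the parental and vector libraries and at 11.1, 17.2, 11.4 and 12.4 in clones 1 to 4. The clones lay far below both controls, with a narrow range among themselves. Its mean was 53.4 ± 4.32 RPKM (SD, n = 2) in the control and 13.0 ± 2.83 (n = 4) in the clones, a log2 fold change of -1.98 ± 0.21 (SE, limma adjusted p = 0.0488). Neuronal activity induces Npas4, a transcription factor, which stood here at 10.4 and 11.0 RPKM in the controls and at 0.475, 1.62, 0.376 and 0.532 in the clones. It fell by 2.79 on the log2 scale (SE 0.30, limma adjusted p = 0.0488), and clone 2 was the highest of the 4 for both genes. Arc, an early gene whose product acts at synapses in neurons, stood at 8.51 and 9.33 RPKM in the controls and at 1.51, 0.895, 0.607 and 1.30 in the clones. Its log2 fold change was -2.28 ± 0.24 (limma adjusted p = 0.0488), without overlap.

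Further members were as low without passing in the main fit. Nr4a1, an orphan nuclear receptor, stood at 317 and 315 RPKM in the controls and at 27.0, 84.7, 24.3 and 15.1 in the clones. Among the zinc finger factors of the EGR family, Egr2 stood at 45.3 and 49.5 RPKM in the controls and at 7.83, 6.17, 10.5 and 2.93 in the clones. Egr3 stood at 49.0 and 54.7 RPKM against 3.16, 9.93, 7.59 and 1.20. These 3 genes were called lower in the fit of 10 libraries (limma adjusted p = 0.0275, 0.0225 and 0.0425), while their adjusted p in the fit of 6 libraries was 0.136, 0.0869 and 0.154. Clone 4 had the lowest value of each. Fosb, a subunit of the AP-1 factor, stood at 28.9 and 28.0 RPKM in the controls and 3.44 to 10.9 in the clones. Differences were smaller for Junb, another AP-1 subunit, at 202 to 225 RPKM in the controls and 80.5 to 169 in the clones, and for the growth regulator Myc, at 80.3 to 87.5 and 32.0 to 65.7. Fos, the AP-1 subunit that gives the FOS family its name, stood at 13.9 and 14.5 RPKM in the controls and at 13.9, 7.43, 28.5 and 11.9 in the clones (log2 fold change -0.04 ± 0.44). Klf2, a zinc finger factor, stood at 54.2 and 49.5 RPKM against 52.4, 57.1, 52.6 and 42.8. For both, clones lay on either side of the controls, and the sign of the difference turned without clone 4.

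Among the 20 measured early genes that are not transcription factors of this class, 17 were on the lower side, with a median of -0.99. Arc fell, and 10 were apart by 2-fold on the lower side against 0 on the higher side. Gadd45g, a stress-induced growth inhibitor, stood at 111 and 98.8 RPKM in the controls and at 43.0, 28.2, 30.1 and 47.8 in the clones, and its relative Gadd45b at 64.7 and 54.2 against 19.3, 27.8, 15.4 and 31.2. The antiproliferative Btg2 ranged from 38.9 to 39.5 RPKM in the controls and from 10.2 to 16.7 in the clones. Errfi1, an inhibitor of the EGF receptor, was at 90.3 RPKM in each control and 8.63 to 34.4 in the clones. Neither these nor the pleckstrin-domain gene Phlda1 (72.8 to 78.2 RPKM in the controls, 8.65 to 28.9 in the clones) passed in either fit. Of the 13 measured feedback inhibitors of MAP kinase signalling, which are induced by the same pathway, 0 passed and 2 were apart by 2-fold on the lower side. Dusp5, a nuclear ERK phosphatase, stood at 93.4 and 81.5 RPKM in the controls and at 12.9, 43.6, 10.3 and 10.1 in the clones. By contrast Dusp1, another MAP kinase phosphatase, stood at 93.4 and 93.0 RPKM against 91.9, 108, 84.5 and 52.8, so its clones overlapped the controls.

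**Figure D2:**
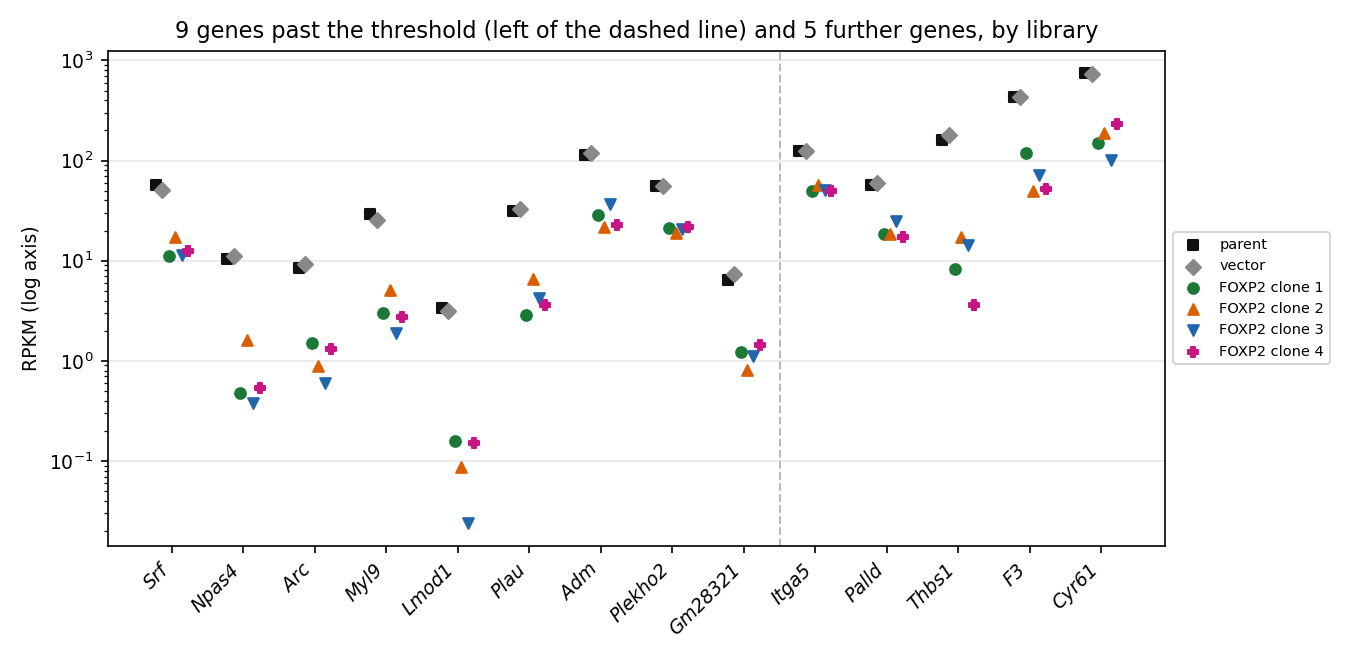
RPKM in each of the 6 libraries (log axis) for 9 of the 11 rows that fell (left of the dashed line) and 5 further genes with large differences. Squares and diamonds are the parental and vector libraries and the other symbols are the 4 FOXP2 clones, which lie below both controls for every gene shown, for example at 11.1 to 17.2 RPKM for Srf against 50.4 and 56.5.

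Promoter sequences show which of these genes carry the SRF motif close to their start. The RefSeq table of promoters (GRCm38.p6) matched 8167 of the 11239 tested symbols, and the 250 bases upstream of each start were searched on both strands. A CArG box was found for 117 of the 8167 (1.43%). Among genes apart by 2-fold on the lower side it was found for 10 of 107 with a promoter (9.35%), and among those apart on the higher side for 0 of 34. The 10 were Srf, Myl9, Gm28321, Egr2, Dusp5, Fhl2, Lima1, Filip1l, Lurap1l and Lmcd1, named after their values were seen. Within the early transcription factor and contractile lists, 2 of 17 and 2 of 15 genes with a promoter held a CArG box. Other motifs were searched as well, and some of their shares also differed. The TATA box (TATAAA) was found for 18 of the 107 (16.8%), against 7.76% of tested genes with a promoter. The AP-1 site (TGANTCA) was found for 6 of the 34 (17.6%), against 5.51%. No share was tested. A match is a description of these letters, not of binding, and genes with several listed starts have more bases searched. Below are the stretches around the matches, 5′ to 3′ on the gene's strand, with CArG boxes in capitals. They show that the 2 boxes of the Srf promoter, 1 of Myl9 and those of the early gene Egr2 and the contractile regulator Fhl2 all lie within 161 bases of the start.
Srf, chr17:46556200-46556259, minus strand: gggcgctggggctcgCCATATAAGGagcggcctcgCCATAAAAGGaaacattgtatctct
Myl9, chr2:156775288-156775347, plus strand: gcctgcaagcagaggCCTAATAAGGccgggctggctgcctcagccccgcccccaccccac
Egr2, chr10:67537479-67537538, plus strand: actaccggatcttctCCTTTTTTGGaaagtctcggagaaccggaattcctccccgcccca
Fhl2, chr1:43196813-43196872, minus strand: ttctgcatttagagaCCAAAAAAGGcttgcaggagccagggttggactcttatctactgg
The upstream bases of Npas4, Lmod1, Btg2 and Gadd45g held no CArG box. Btg2 held a cAMP response element, TGACGTCA, shown in capitals, a motif found in 3.22% of tested genes with a promoter and in 5 of the 107 (4.67%).
Btg2, chr1:134079277-134079336, minus strand: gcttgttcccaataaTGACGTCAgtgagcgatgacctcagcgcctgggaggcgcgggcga
The forkhead core TGTTTAC was found for 2.58% of tested genes with a promoter, for 2 of the 107 (1.87%) and for 1 of the 34 on the higher side (2.94%). A looser FOXP core, T followed by A or G, TT, G or T, A or G, and C or T, was found for 29.2% of tested genes with a promoter. It was found for 30 of the 107 (28%) and for 14 of the 34 on the higher side (41.2%), which are few genes and were not tested.

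Contractile and smooth muscle genes were lower as a group. Of 18 measured members, Myl9 and Lmod1 fell, 7 were apart by 2-fold on the lower side and 0 on the higher side, and 17 had a negative difference. The median was -0.79, and -0.74, -0.69, -1.18 and -0.81 in the single clones. Myl9, a regulatory light chain of myosin, stood at 29.4 and 25.8 RPKM in the controls and at 3.04, 5.12, 1.92 and 2.73 in the clones, a log2 fold change of -2.81 ± 0.29 (limma adjusted p = 0.0488). Lmod1, a leiomodin that nucleates actin filaments in smooth muscle, stood at 3.40 and 3.17 RPKM in the controls and at 0.158, 0.0877, 0.0239 and 0.153 in the clones. Its log2 fold change of -1.96 ± 0.22 (limma adjusted p = 0.0488) understates a 31.1-fold ratio of the mean RPKM, because the pseudocount compresses low values. For both genes clone 3 was the lowest.

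The actins and their partners showed the same direction with more spread between clones. Acta2, smooth muscle actin, stood at 482 and 491 RPKM in the controls and at 114, 204, 28.6 and 175 in the clones. Tagln, the actin-binding transgelin, stood at 70.3 and 68.5 RPKM against 19.8, 53.0, 6.34 and 6.28. Clone 3 held the lowest Acta2 and clone 2 the highest value of both, and neither gene passed (limma adjusted p = 0.517 and 0.585). Fhl2, a LIM-domain cofactor, stood at 98.2 and 103 RPKM in the controls and at 38.3, 48.7, 30.2 and 27.4 in the clones. It was called lower in the fit of 10 libraries only (limma adjusted p = 0.0331). The actin gene Actg2 stood at 8.75 and 7.73 RPKM in the controls and 0.314 to 2.38 in the clones, and the tropomyosin Tpm1 at 360.0 and 374 against 126 to 247.

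Adhesion genes differed less. Of 26 measured adaptors of focal adhesions, the sites where actin is tied to integrins, 0 passed, 23 were on the lower side and 3 were apart by 2-fold, with a median of -0.33. Nexn, the actin-binding nexilin, was called in the fit of 10 libraries (limma adjusted p = 0.0331), at 6.44 and 6.87 RPKM in the controls and 0.795 to 2.18 in the clones. Zyx, encoding zyxin, stood at 234 and 235 RPKM against 71.0, 146, 75.2 and 94.4. Of 11 measured integrin subunits 2 were apart by 2-fold on the lower side and 6 had a negative difference. Itga5, the alpha chain of the fibronectin receptor, stood at 126 and 124 RPKM in the controls and at 49.8, 57.3, 51.0 and 49.1 in the clones. It missed the threshold in the main fit (limma adjusted p = 0.0547) and passed in the fit of 10 libraries (adjusted p = 0.0026). Its partner chain Itgb1 stood at 268 and 264 RPKM against 277, 313, 227 and 310.0, overlapping the controls. Palld, which encodes the actin scaffold palladin, stood at 56.9 and 59.6 RPKM in the controls and at 18.5, 18.3, 24.8 and 17.2 in the clones (limma adjusted p = 0.0694, and 0.00516 in the fit of 10 libraries). Lima1, another actin-bundling protein, stood at 183 and 184 RPKM against 44.3 to 77.6 (limma adjusted p = 0.0869, and 0.0292 in the fit of 10 libraries). Taken as 1 set of 103 measured members, the 2 early lists, the contractile, adhesion adaptor and YAP/TEAD lists held 32 symbols apart on the lower side. Over all 11239 tested symbols there were 189. These lists were pooled with earlier results known, and other lists with members apart, such as the TGF-beta response genes (6 of 25), were left out. The pooled count is therefore only a description.

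Several secreted proteins of the cell surroundings were far lower in the clones. Thbs1, the matrix glycoprotein thrombospondin 1, stood at 160.2 and 179.5 RPKM in the controls and at 8.20, 17.2, 14.3 and 3.63 in the clones. The log2 fold change of -4.03 ± 0.52 missed the threshold (limma adjusted p = 0.0742) and passed only in the fit of 10 libraries (adjusted p = 0.0154). The related matricellular proteins Ctgf and Cyr61 are standard targets of the YAP and TEAD factors. Ctgf stood at 350.0 and 374 RPKM in the controls and at 34.5, 65.0, 9.74 and 53.4 in the clones. Cyr61 stood at 744 and 731 RPKM against 151, 188, 102 and 234. Clone 3 was lowest for both, and neither passed in either fit. Of 18 measured YAP/TEAD targets 0 passed and 6 were apart by 2-fold on the lower side, but 6 had a positive difference, and the median was -0.22. Ankrd1, a nuclear ankyrin-repeat protein, stood at 61.4 and 58.5 RPKM in the controls and 3.00 to 24.0 in the clones. Amotl2, a scaffold at cell junctions, passed in the fit of 10 libraries (limma adjusted p = 0.0225), at 190.2 and 197 RPKM against 87.1, 111, 78.7 and 75.9. Of 13 measured matricellular genes 0 passed and 4 were apart by 2-fold on the lower side (median -0.24), but Thbs2 stood at 107 and 114 RPKM in the controls and at 188, 141, 270.0 and 49.2 in the clones.

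The genes that respond to TGF-beta held 6 of 25 measured members apart by 2-fold on the lower side and 0 passed, with a median of -0.62. Besides Thbs1 and Ctgf these included Inhba, a subunit of activin, at 32.8 and 35.3 RPKM in the controls and 5.97, 11.7, 3.99 and 10.4 in the clones. The inhibitory Smad6 stood at 15.4 and 13.5 RPKM against 11.2, 4.61, 5.99 and 5.91. The ligands, receptors and SMAD proteins of the pathway held 0 of 21 members apart by 2-fold in either direction (median -0.06).

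In the tissue factor and plasminogen system, which starts clotting and dissolves fibrin at the cell surface, Plau fell and 4 of 11 measured members were apart by 2-fold on the lower side. Plau, the urokinase activator of plasminogen, stood at 31.6 and 32.6 RPKM in the controls and at 2.84, 6.63, 4.25 and 3.61 in the clones. Its log2 fold change was -2.68 ± 0.28 (limma adjusted p = 0.0488), without overlap. F3, the tissue factor, stood at 433 RPKM in each control and at 119.6, 49.7, 71.4 and 52.4 in the clones (limma adjusted p = 0.0776, and 0.0154 in the fit of 10 libraries). The urokinase receptor Plaur stood at 107 and 105 RPKM against 26.1, 74.1, 11.8 and 31.1. Clone 2 was nearest to the controls and clone 3 the lowest, and the receptor did not pass (limma adjusted p = 0.522). Plat, the tissue-type activator of plasminogen, stood at 30.5 and 36.3 RPKM against 39.1, 28.1, 37.8 and 32.4, overlapping the controls.

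The other genes that fell belong to none of these groups. Adm, the vasodilator peptide adrenomedullin, stood at 114 and 118 RPKM in the controls and at 28.3, 21.9, 37.2 and 22.9 in the clones, a log2 fold change of -2.07 ± 0.24 (limma adjusted p = 0.0488). Adm is a known hypoxia gene. Of 17 measured hypoxia genes 13 had a positive difference (median 0.16), with medians of -0.10, -0.39, 0.44 and 0.58 in clones 1 to 4. The angiogenic factor Vegfa stood at 62.1 and 62.0 RPKM against 79.0, 64.5, 129.6 and 91.4. Plekho2, a pleckstrin-homology protein, was nearly uniform among the clones, at 56.2 and 55.2 RPKM in the controls and at 21.0, 18.8, 21.0 and 21.5 in the clones (log2 fold change -1.40 ± 0.15, limma adjusted p = 0.0488). Gm22637 stood at 13.9 and 5.96 RPKM in the controls and was listed at 0 in all 4 clones, so no fold is given. Gm28321 stood at 6.44 and 7.44 RPKM against 0.803 to 1.44. Gm15427 has 2 rows that went apart: the row that fell stood at 568 and 744 RPKM against 224 to 257, while the other stood at 236 in parental, 0.00471 in vector and 235 to 336 in the clones, so its value is uncertain.

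Among genes called only in the fit of 10 libraries were further forkhead and signalling genes. Foxs1, a forkhead factor of perivascular cells, stood at 13.7 RPKM in each control and at 2.89, 2.33, 1.44 and 3.91 in the clones (limma adjusted p = 0.0154 in that fit and 0.0835 in the main fit). The forkhead gene Foxn3 stood at 123 and 24.4 RPKM in the controls and at 6.47, 3.20, 7.19 and 7.67 in the clones. The controls did not overlap the clones, but the parental level was far above the vector level. Of 17 measured forkhead genes these 2 were apart by 2-fold, and the median was -0.06; Foxp4, a close relative of FOXP2, stood at 23.9 and 23.2 RPKM against 21.0 to 23.5. Irak2, a kinase of interleukin-1 signalling, stood at 40.0 and 30.6 RPKM against 10.3, 6.71, 7.89 and 13.3. Serping1, the C1 inhibitor, stood at 1.75 and 2.50 RPKM against 0.0258 to 0.0628, and Arl4d, a small GTPase, at 21.2 and 21.8 against 2.76 to 6.59. Slc2a1, the glucose transporter GLUT1, stood at 106 and 105 RPKM in the controls and 48.5, 58.2, 60.3 and 53.2 in the clones (limma adjusted p = 0.133, and 0.0275 in the fit of 10 libraries). From a list of published FOXP2 targets 13 were measured, of which 0 passed in either fit and only Plaur was apart by 2-fold (median -0.11).

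Detoxifying and stress genes lay on the lower side with smaller differences. Of 22 measured NRF2 targets and glutathione enzymes 0 passed, 18 had a negative difference and 3 were apart by 2-fold on the lower side, with a median of -0.52. Gsta4, a glutathione transferase, stood at 268 and 237 RPKM in the controls and at 150.2, 120.0, 43.8 and 46.4 in the clones, and the quinone reductase Nqo1 at 164 and 154 against 96.6, 113, 18.9 and 57.8. Clone 3 was the lowest for both. Of 17 measured p53 targets 0 passed and 3 were apart by 2-fold on the lower side (median -0.31): Btg2, the kinase Plk2 at 185 to 189.5 RPKM in the controls and 23.2 to 119.8 in the clones, and the death receptor Fas at 34.0 to 36.7 and 6.67 to 25.7.

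**Figure D3:**
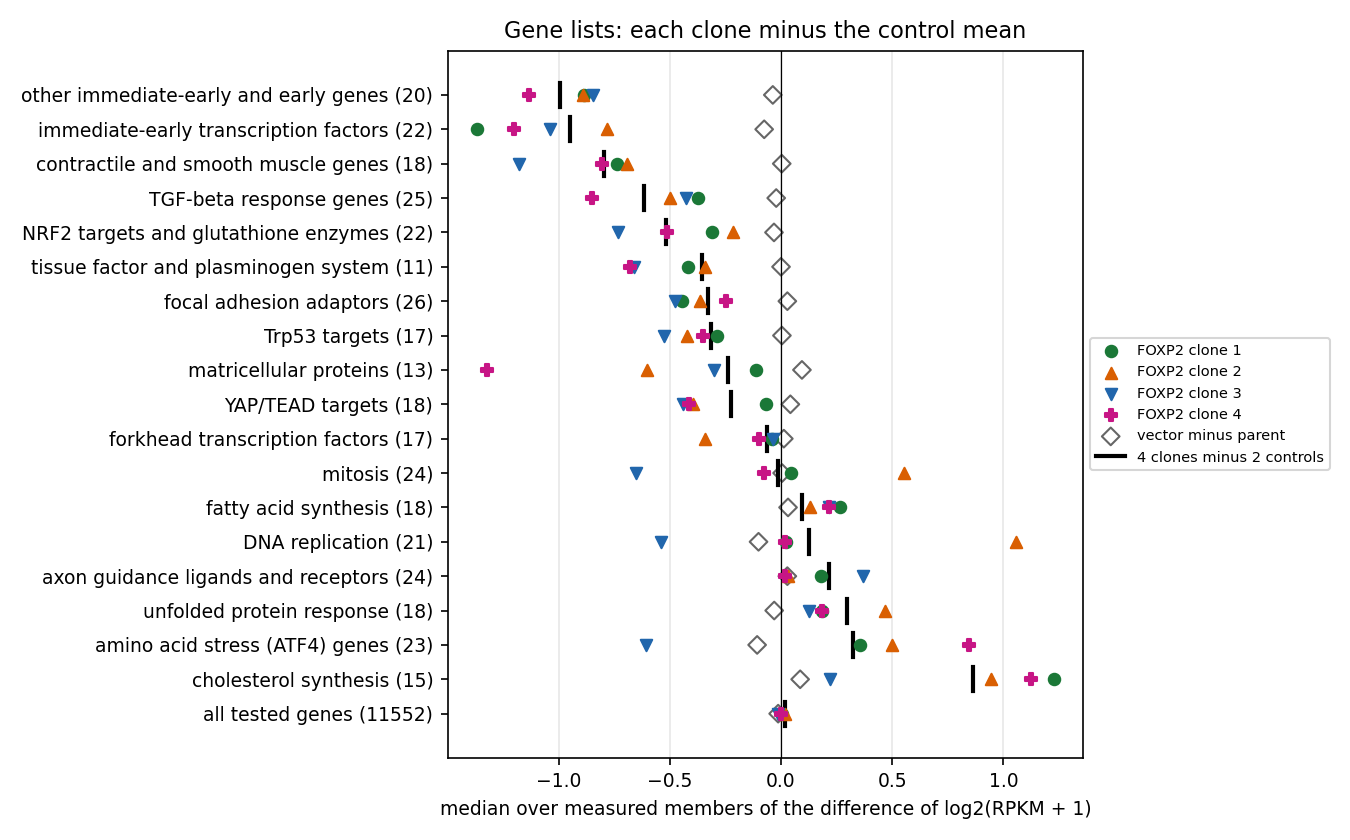
Median, over the measured members of 18 gene lists and over all tested rows (number in brackets), of the difference of log2(RPKM + 1) between each FOXP2 clone and the control mean (filled symbols), between the 4 clones and the 2 controls (black bars), and between vector and parental cells (open diamonds). The early and contractile lists lie below -0.6 in all 4 clones, whereas DNA replication runs from -0.54 in clone 3 to 1.06 in clone 2.

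On the higher side the clearest group was cholesterol synthesis. All 15 measured enzymes had a positive difference, with a median of 0.86 against 0.02 over all genes, 6 were apart by 2-fold on the higher side and 0 on the lower side, and 0 passed. The medians of clones 1 to 4 were 1.23, 0.95, 0.22 and 1.12, so clone 3 had the smallest. Vector differed from parental cells by 0.09.

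The early enzymes varied between clones. Hmgcs1, an early synthase of the pathway, stood at 28.0 and 29.8 RPKM in the controls and at 65.0, 43.3, 24.3 and 64.1 in the clones, so clone 3 lay below the controls and the other 3 clones above. Idi1, the isomerase of isopentenyl units, stood at 12.6 and 14.7 RPKM in the controls and at 54.5, 36.6, 12.9 and 56.6 in the clones. Fdft1, squalene synthase, stood at 11.6 and 12.7 RPKM against 29.8, 33.7, 19.8 and 25.5. Sqle, squalene epoxidase, stood at 37.0 and 35.1 RPKM against 103, 92.7, 42.2 and 119. All 4 clones were above both controls for Fdft1 and Sqle, but for Idi1 clone 3 lay between them. The sterol demethylase Cyp51 had the smallest p of the list, at 44.0 and 43.1 RPKM in the controls and 146, 102, 81.3 and 134 in the clones (log2 fold change 1.36 ± 0.25, limma adjusted p = 0.163, and 0.0831 in the fit of 10 libraries). Lss, lanosterol synthase, stood at 9.37 and 10.7 RPKM against 12.8 to 28.8, and the dehydrogenase Nsdhl at 7.02 and 7.39 against 10.5 to 21.2. For both, clone 3 was the lowest clone.

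Among the regulators and neighbours of the pathway the pattern was mixed. Of 13 measured genes of sterol uptake and SREBP control 6 had a positive difference, and only Insig1, the sterol sensor that holds SREBP in the endoplasmic reticulum, was apart by 2-fold. It stood at 24.9 and 25.3 RPKM in the controls and at 61.9, 62.4, 44.2 and 46.5 in the clones. Of 18 measured fatty acid synthesis genes 11 had a positive difference (median 0.09), 1 was apart by 2-fold on the higher side and 1 was called higher in the fit of 10 libraries. The latter was Acly, which makes cytosolic acetyl-CoA for both pathways, at 59.1 and 63.3 RPKM in the controls and 122, 112, 107 and 125 in the clones (limma adjusted p = 0.0331 in that fit and 0.131 in the main fit). The clones were close together and all above both controls. The elongase Elovl6, whose symbol has 2 rows, stood at 3.90 and 4.30 RPKM against 15.3, 9.17, 8.12 and 13.2 in its higher row.

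A CCAAT box, a promoter motif that often accompanies SREBP sites, was found upstream of all 11 cholesterol genes with a promoter in the table, against 42.1% of tested genes with a promoter. This was noted after the values were seen. The box was not particular to this group. It was also found for 10 of 15 early genes that are not transcription factors (66.7%) and 9 of 15 contractile genes (60%). Among the early transcription factors it was found for 6 of 17 (35.3%). Sterol response elements, searched by the letters TCACNCCAC, were found for 1 of the 11 (9.09%) and for 1.27% of tested genes with a promoter. The CCAAT boxes, read as CCAAT or, on the other strand, ATTGG, are in capitals below for Cyp51 and Nsdhl, 2 of the 6 genes of the list that were apart by 2-fold.
Cyp51, chr5:4104698-4104757, minus strand: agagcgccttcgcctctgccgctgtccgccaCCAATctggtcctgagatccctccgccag
Nsdhl, chrX:72918397-72918520, plus strand: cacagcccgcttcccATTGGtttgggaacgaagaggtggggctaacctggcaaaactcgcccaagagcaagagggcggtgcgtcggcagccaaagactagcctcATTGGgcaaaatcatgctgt

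**Figure D4:**
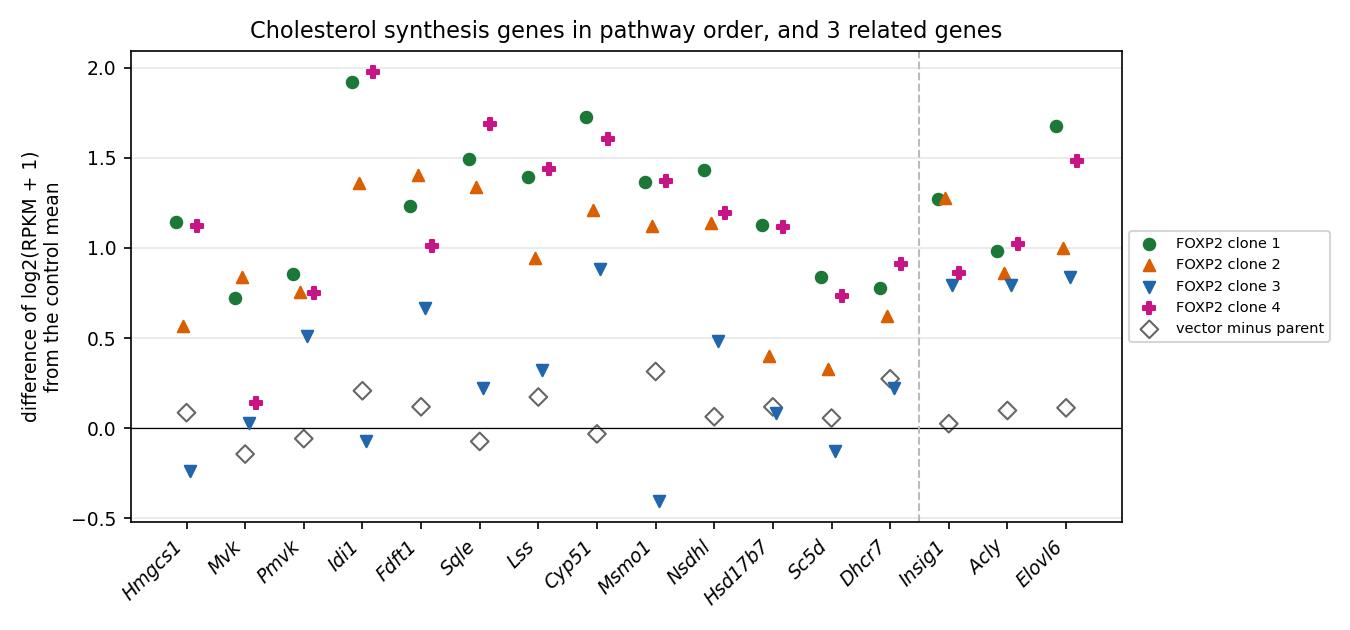
Difference of log2(RPKM + 1) from the control mean for 13 measured cholesterol synthesis genes in pathway order and, right of the dashed line, 3 related genes. Filled symbols are the 4 FOXP2 clones and open diamonds the vector minus parental difference. Clone 3 is the lowest of the 4 clones for all 16 genes shown.

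Other genes on the higher side came singly. Cpa6, a secreted carboxypeptidase, had the smallest p of any higher gene, at 0.246 and 0.104 RPKM in the controls and 3.23, 3.42, 6.96 and 3.82 in the clones (log2 fold change 2.14 ± 0.30, limma adjusted p = 0.0835, and 0.0154 in the fit of 10 libraries). Sema3c, a secreted semaphorin that guides axons and vessels, stood at 13.6 and 17.4 RPKM in the controls and at 40.5, 35.5, 68.4 and 71.5 in the clones (limma adjusted p = 0.177, and 0.0453 in the fit of 10 libraries). Of 24 measured axon guidance genes 16 had a positive difference (median 0.21), and Sema3c and the ephrin Efna1 were apart by 2-fold. Efna1 stood at 6.66 and 5.75 RPKM against 12.5, 10.8, 17.4 and 14.4. Lama4, a laminin chain of basement membranes, stood at 2.98 and 3.29 RPKM in the controls and at 8.80, 10.3, 22.9 and 9.60 in the clones. It was the only 1 of 13 measured basement membrane genes apart by 2-fold. Zfp503, a zinc finger repressor, stood at 1.24 and 0.935 RPKM against 7.76, 6.55, 13.8 and 3.33. Gm16867, a gene model called higher in the fit of 10 libraries, stood at 57.9 and 55.8 RPKM against 98.3 to 149.

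Replication-dependent histone genes also stood on the higher side, but the controls were themselves far apart. Hist1h2ap stood at 143 and 48.0 RPKM in the parental and vector libraries and at 313, 695, 177 and 251 in the clones. Hist1h2ag stood at 30.2 and 10.8 RPKM against 64.8, 163, 39.6 and 48.6. Clone 2 was the highest for both, and vector cells the lowest. These genes are outside the histone list, of which 13 were measured: 11 had a positive difference (median 0.33), 2 were apart by 2-fold (Hist1h4b and Hist1h4d) and 0 passed. Such near-identical genes share reads, so single values are uncertain. In the folding stress response of the endoplasmic reticulum 17 of 18 genes had a positive difference (median 0.30) and 0 were apart by 2-fold. Its chaperone Hyou1 stood at 23.8 and 23.9 RPKM against 35.1, 42.9, 32.1 and 35.5.

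The clones differed from each other about as much as from the controls. Between 499 and 1706 tested rows differed by at least 2-fold between 2 clones, against 460 to 1256 between a control and a clone and 247 between parental and vector cells. At least 2-fold below both controls were 184, 445, 452 and 375 rows in clones 1 to 4, and at least 2-fold above them were 107, 334, 237 and 174. Counting each row once, 618 rows were below both controls in 1 clone, 194 in 2, 74 in 3 and 57 in all 4. These counts are on the scale of log2(RPKM + 1), where the pseudocount lowers the difference of low genes. On the higher side the numbers were 546, 101, 32 and 2. Clone 1 had the fewest private differences, 20 lower and 34 higher, and clone 2 the most, 220 and 254.

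**Figure D5:**
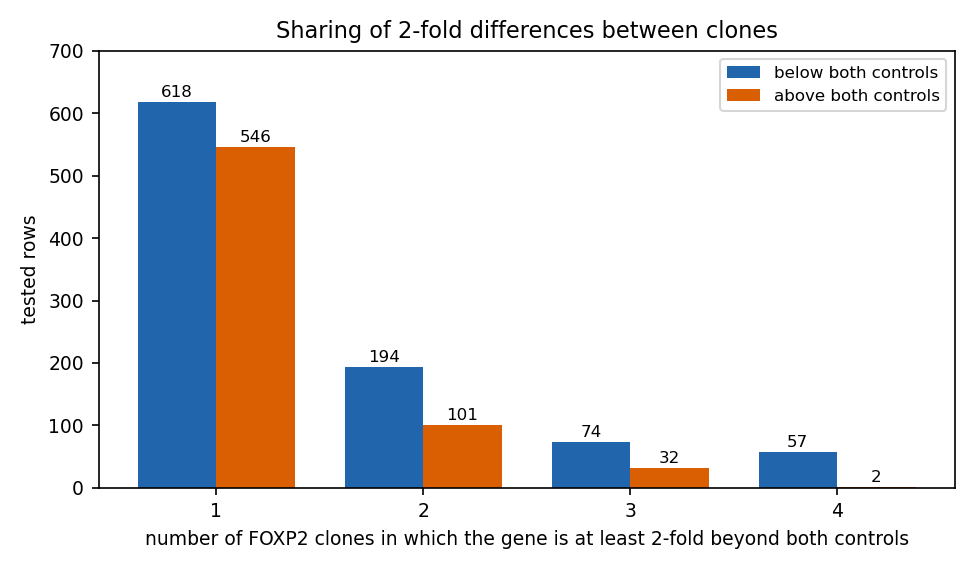
Number of tested rows (vertical axis) that were at least 2-fold, on the log2(RPKM + 1) scale, below (blue) or above (orange) both controls in exactly 1, 2, 3 or all 4 FOXP2 clones. The counts drop from 618 and 546 in a single clone to 57 and 2 in all 4.

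Growth-linked lists differed most between clones 2 and 3. DNA replication genes had a median of 1.06 in clone 2 and -0.54 in clone 3, against 0.02 in clones 1 and 4, and mitosis genes had medians of 0.55 and -0.65 against 0.04 and -0.08. Tyms, thymidylate synthase, stood at 18.5 and 18.7 RPKM in the controls and at 22.4, 69.9, 23.4 and 19.4 in the clones. Mcm6, a subunit of the replicative helicase, stood at 61.4 and 53.7 RPKM against 73.7, 135, 25.9 and 63.1. Neither list held a gene apart by 2-fold, with 21 and 24 members measured. The amino acid stress genes driven by ATF4 spread differently, with medians of 0.36, 0.50, -0.61 and 0.84. Trib3, a pseudokinase of that response, averaged 18.9 ± 1.29 RPKM (SD, n = 2) in the controls and stood at 33.8, 29.8, 7.89 and 104 in the clones. Phgdh, the first enzyme of serine synthesis, stood at 164 and 146 RPKM against 181, 436, 82.9 and 264. Clone 4 was highest for Trib3 and clone 2 for Phgdh, while clone 3 was lowest for both. Chemokine genes ran the other way: the median of 12 measured was 0.48 in clone 3 and -0.53 to -1.30 in the others. Cxcl12, which attracts leukocytes, stood at 33.6 and 32.0 RPKM in the controls and at 16.6, 1.58, 76.8 and 3.16 in the clones. Single genes could be lost in 1 clone: Grb10, an imprinted signalling adaptor, stood at 68.0 and 73.6 RPKM in the controls and at 72.9, 22.6, 0.0398 and 74.5 in the clones.

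By the measure of spread, the most variable rows between clones were mt-Nd6 and 7 gene models. Gm3788 stood at 300.3 and 275 RPKM in the controls and 293 in clone 1 and was listed at 0 in the other 3. Gm37421 was listed at 0 in parental cells and in clones 2 to 4, and stood at 118 RPKM in vector cells and 738 in clone 1. Rows of this kind, present or listed at 0 from library to library, were also among the largest differences between parental and vector cells. Gm8648, for example, was listed at 0 in parental cells and stood at 21.6 RPKM in vector cells.

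The lists that follow had no member past the threshold, and many of their medians were near that of all genes. Medians of nuclear oxidative phosphorylation genes (26 measured), glycolysis (21), Polycomb subunits (22), lysosome genes (16), hedgehog genes (9), Hox genes (8) and basement membrane genes (13) were 0.02, 0.06, 0.00, -0.01, 0.07, 0.06 and 0.02, in that order. Cytosolic ribosomal protein genes (32 measured) had a median of -0.13, which equals the -0.13 between vector and parental cells. Receptor tyrosine kinases (19) and Wnt genes (15) had medians of -0.18 and -0.19, with 0 and 1 members apart by 2-fold on the lower side. All clones lay below both controls for 4 of these kinases and 7 of the Wnt genes, against 10.5% of all tested rows. They lay above both for 1 and 0. Collagens (24) had a median of -0.12 with 1 apart on the lower side. Proteoglycans (15) lay further below all genes, with a median of -0.32, 14 negative differences and 1 member apart on the lower side. Their medians in clones 1 to 4 were -0.25, -0.66, -0.44 and -0.39.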

How the data were processed

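Trizol RNA went into NEBNext Ultra libraries, per the labels' protocols. The authors deposited RPKM values, 1 column per library, made with HISAT2 and StringTie on mm9 per the submitters' processing notes; for their versions, the annotation and the strand setting: not given in the sources used here. Rows that name no gene (3581, with 3.46 to 4.54% of summed RPKM) and rows that join several genes (987) were left out of the main fit. RPKM were transformed as log2(RPKM + 1) and fitted with limma 3.58.1 in R 4.3.3 (empirical Bayes with a trend, 2 controls against 4 clones, two-sided). No interval for counting error can be given without counts. Values of the 855 tested rows whose symbol has several rows, of pseudogenes and of overlapping genes are uncertain; a symbol is carried by its row with the highest mean. An SD is over libraries, so each p-value of the main fit rests on the spread of these 6 cultures, moderated by the trend over all rows. The p-values of the fit of 10 libraries also draw on the spread of the 4 FOXP2-CPED1 clones. The script of the fit was tested on simulated data.

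The genes named are Foxp2, Cped1, those past the threshold in either fit, the 15 largest differences in each direction among genes apart by 2-fold, up to 6 members per list by p with any other member given as a value, the 8 most variable between clones and the 6 that differed most between parent and vector; the text prints a part of them. Some genes this rule takes are not reported here. The members, lists, groups and rules were chosen with earlier results of these data known. There are 58 lists; those not named in the text had 0 members past the threshold. Promoters are from RefSeq (GRCm38.p6), matched by symbol or synonym; up to 8 were taken by p from the early, contractile and cholesterol lists, and those without a CArG box or CRE are not printed. The alternatives were other pseudocounts, filters and scalings, a fit without the trend, library weights, all 10 libraries, and each library left out.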

Additional observations from a re-analysis of the deposited data

Results flagged for a closer look

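Among the 96 named genes that were tested, 7 had 1 clone far from the other 3, with a gap that took a share of the range of the 4 clones above Dixon's critical value. Chance gives such a gap in about 1 in 20 groups of unselected genes, a rate that cannot be applied here because some of these genes, Gm37421 and Gm3788 among them, were named for their spread between clones. Clone 1 was alone on the high side for Gm37421 and Gm3788, whose gap was 1 of the range because the other 3 clones were listed at 0. Clone 2 was alone on the high side for Npas4 (0.833), Dusp5 (0.839) and Tyms (0.858). Clone 3 was alone on the high side for Lama4 (0.842) and on the low side for Lurap1l (0.881).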

How the results depend on the processing

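The count of 11 genes past the threshold became 0 with a pseudocount of 0.1 or 0.25, with a filter on a mean of 5 RPKM and with rows joining several genes added. It became 1874 (1018 lower and 856 higher) with library quality weights and 52 with the spread of all 10 libraries. Leaving out 1 library gave 0 (without the vector library) to 18 (without clone 2), and leaving out clones 2 and 4, whose mitochondrial rows were at 0, gave 20. Other scalings, no filter and no trend gave 9 to 12. The count of 264 rows apart by 2-fold became 410 with a pseudocount of 0.1, 439 without clones 2 and 4, and 318 to 414 when 1 library was left out. The settings that added joined rows or left out clones 2 and 4 were chosen after seeing the data. By definition, fewer libraries make it easier for all clones to lie on one side of the controls. The cause of these shifts was otherwise not tested. Of 1620 values of 96 single genes, 1375 kept direction and side of the threshold, 113 lost the threshold, 102 gained it and 30 reversed. Of 811 medians of the 58 lists, 791 moved by less than 1 SD of the clone medians, and among the 18 lists of size 0.3 or more 3 values changed sign.

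Differences that reversed belong to genes that did not pass. With library quality weights Cped1 became 0.18, Gm37421 4.9997, Gm8648 -1.79 and Klf2 0.0030. Without clones 2 and 4, Cxcl12 became 0.13, Fos 0.46, Klf2 0.020, Gm37421 1.32, Itgb1 -0.088, Mcm6 -0.38, Phgdh -0.34 and Trib3 -0.18. Quantile normalization gave Vwf 0.018. Leaving out 1 library gave ranges of -0.32 to 0.016 for Dusp1, -0.37 to 0.23 for Fos, -0.088 to 0.059 for Klf2, -4.51 to 2.38 for Gm37421, -2.01 to 2.49 for Gm8648, -0.21 to 0.57 for Mcm6, -0.091 to 0.15 for Plat, -0.017 to 0.79 for Thbs2 and -0.61 to 0.33 for Vwf.

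No paired analysis was possible because the control libraries are 1 parental and 1 vector culture and carry no clone number. Absolute depth is unknown, so low values have no counting error. With 2 controls against 4 clones, full separation gave p = 0.133 in the exact two-sided permutation test as run here. The splits themselves allow no p below 0.0667.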
